A study of Mus musculus with 6 samples.

Results

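Chromatin remodelers are the machines that use ATP to slide, evict or exchange nucleosomes, and 50 genes that encode their subunits are described here in mouse embryonic stem cells (mESC) with and without TET enzymes. The 50 genes were chosen by name, as known subunits of the BAF, ISWI, CHD, NuRD, INO80, SRCAP and TIP60-p400 complexes, with earlier results of these data known. All 50 were matched by Ensembl gene ID among the 22380 genes measured, and the mean over the lines was 10 normalized counts or more for each of the 50. TET proteins oxidize 5-methylcytosine in DNA, and the comparison asks how transcript levels differed after their acute loss.

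The RNA came from 3 Ctrl lines and from 3 Tet iTKO lines, each taken from the blastocyst of a different embryo and kept as a population and not as a clone. Both groups carried 1 copy of CreERT2, a tamoxifen-inducible Cre driven by the ubiquitin C promoter, and 1 copy of a Rosa26 reporter, Gt(ROSA)26Sor<tm1Ytchn>/J, that makes H2B-EGFP once Cre has cut out its stop cassette. The Tet iTKO lines were in addition homozygous for floxed Tet1, Tet2 and Tet3, which the Ctrl lines were not. Both groups received 1 µM 4-hydroxytamoxifen, called tamoxifen in the labels, for 2.5 days and then 4 days of culture without it. Exposure to the drug and to active Cre was thus shared. The cells grew in 2i medium, which holds mESC in the naive state, on feeder fibroblasts, and at day 6.5 live cells positive for CD326 and GFP and negative for the feeder marker Thy1.2 were sorted for Smart-Seq2 libraries.

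The values are normalized counts, that is read counts per gene divided by a size factor for the library. They summed to between 4210784 and 4219665 per Ctrl line and between 3964824 and 3996522 per Tet iTKO line, and genes above 0 numbered 13431 to 13539 and 14024 to 14363. Across whole genes, Tet3 fell (log2 fold change -1.67, limma adjusted p = 0.0353, from 28, 13 and 13 to 10, 3 and 3), a call lost without Tet iTKO replicate 2 or 3 (both -1.43). Tet1 passed as higher over the whole gene (0.21, limma adjusted p = 0.0257, from 696, 682 and 716 to 787, 895 and 753). That call was lost without Ctrl replicate 2 (0.20) or Tet iTKO replicate 2 (0.14). After the correction for GC content and length described below, Tet1 had -0.02 and did not pass. Tet2 did not pass (0.14). Such values cannot show reads missing from the floxed exons alone, and the study reported that those exons of Tet1, Tet2 and Tet3 had lost their reads. The 6 mESC markers were abundant in every line, with sums of 10152 to 10617 in Ctrl and 9366 to 9757 in Tet iTKO. They did not move together. Pou5f1 (5208, 5804 and 5457 against 4373, 4318 and 4775), Nanog and Zfp42 were lower in Tet iTKO without overlap. Esrrb (1174, 1284 and 1297 against 1503, 1563 and 1506) and Epcam were higher without overlap, and Sox2 overlapped. Of all genes tested, 22.9% were lower and 21.2% higher without overlap, so such separation was common. The study described pluripotency markers, Pou5f1, Nanog and Esrrb among them, as comparable between the groups. It found the protein of Pou5f1, OCT4, unaltered. Sums of 8 feeder fibroblast markers were 281 to 300 in Ctrl and 491 to 583 in Tet iTKO, with 6 of the 8 above 0 in all lines, and their part in the results below was not tested. The difference lay in Col1a1 (150 to 181 against 281 to 349), Col1a2, Col3a1 and Fbln2, while Thy1, the marker of the sort, was at 30, 46 and 41 against 47, 35 and 23, and Pdgfrb and Lum stood at 9 or less in each line. In these bulk samples, fewer cells of a type and less RNA per cell cannot be told apart.

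Remodelers are built around a SNF2-type ATPase that drives DNA translocation, and accessory subunits set where each complex binds and what it does to nucleosomes. The BAF complex opens enhancers and promoters, and mESC use a version built on Smarca4, Smarcc1 and Arid1a. NuRD joins the Chd3 or Chd4 ATPase to the histone deacetylases Hdac1 and Hdac2, ISWI complexes space nucleosomes, and INO80, SRCAP and TIP60-p400 act on the histone variant H2A.Z.

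The catalog as a whole was expressed in both groups. Among the ATPases, Smarca4, the motor of mESC BAF, stood at 186 ± 11.4 normalized counts per kb of transcript (SD, n = 3) in Ctrl. Its paralog Smarca2 stood at 2.25 ± 0.488. For the ISWI motors the levels per kb were 131 ± 5.20 for Smarca5 and 2.29 ± 1.10 for Smarca1. For the NuRD motors they were 112 ± 6.50 for Chd4 and 3.40 ± 1.31 for Chd3. In each of these 3 complexes the mESC lines therefore carried mostly one motor transcript. Among the genes with the highest levels per kb in Ctrl were those of the shared ATPase Ruvbl2 (1158 ± 19.8), the deacetylase Hdac1 (1009 ± 58.2), the actin-related subunit Actl6a (910.0 ± 17.7) and the methyl-CpG-binding domain protein Mbd3 (749 ± 46.6).

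**Figure D1:**
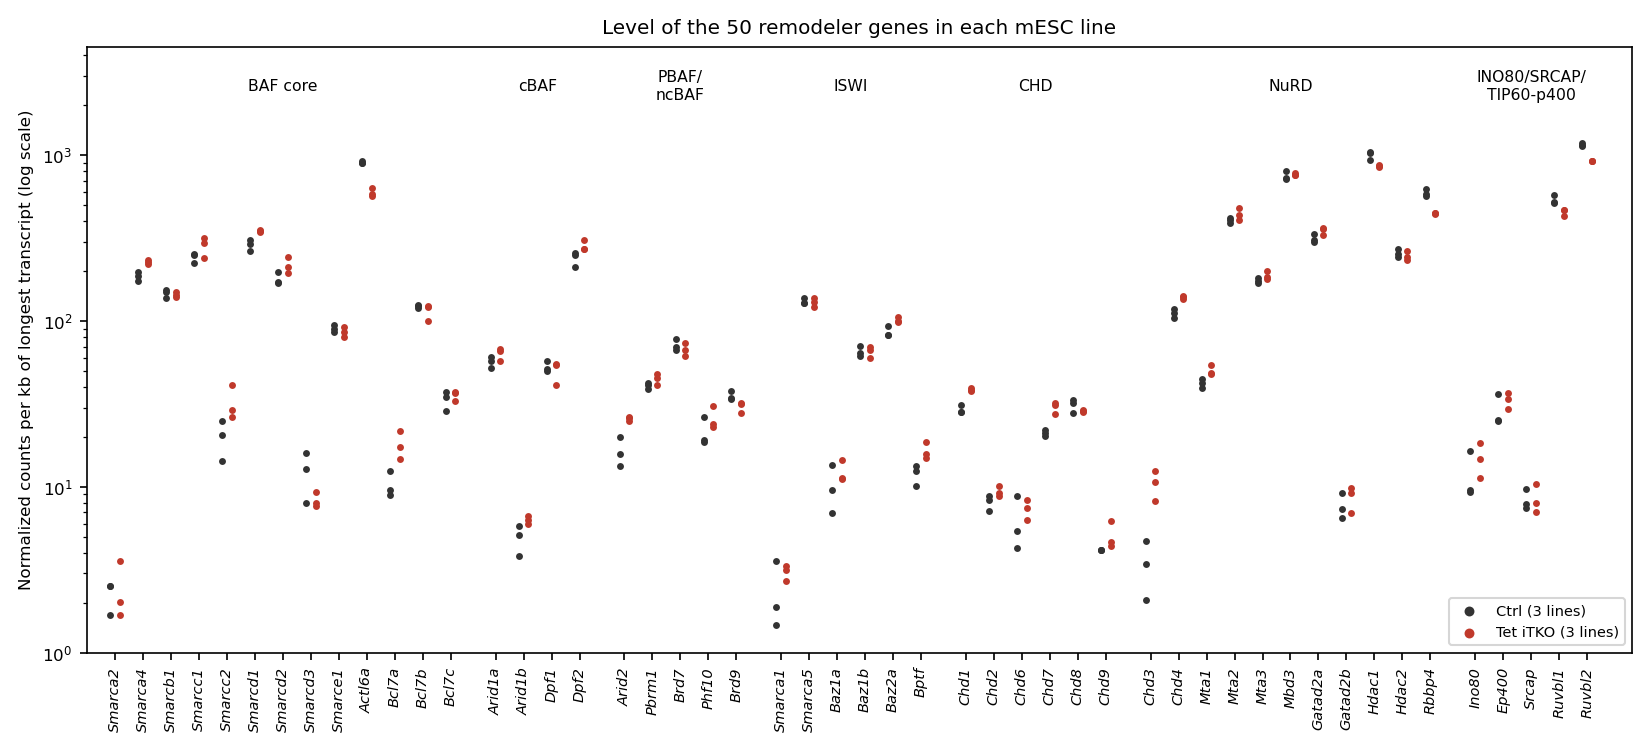
Level of each of the 50 remodeler genes, as normalized counts per kb of the longest annotated transcript on a log scale, grouped by complex; each point is 1 line, black for the 3 Ctrl and red for the 3 Tet iTKO lines. Ruvbl2, Hdac1 and Actl6a lie near the top and Smarca2 and Smarca1 at the bottom, and within most genes the groups differ by far less than the genes differ from each other.

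Between Tet iTKO and Ctrl, 15 of the 50 genes were higher and 5 were lower at a limma adjusted p under 0.05, and 30 did not pass. That is 40% of the members, where 34.8% of all 10524 genes tested passed. For the higher direction the share was 30% of members against 16.4% of all genes, and for the lower direction 10% against 18.4%. Fold changes are differences of mean log2(normalized count + 1), and the adjusted p is limma's moderated test with Benjamini-Hochberg correction over all genes tested. The median log2 fold change of the 50 genes was 0.17, and that of all genes tested was 0.01. Most changes were small. With a log2 fold change of 0.5 or more also required, 5 members were higher and 1 was lower, where 18.1% of all genes passed, 10.2% higher and 7.92% lower. Only Chd3 passed at a fold change of 1 or more on that scale, where 6.25% of all genes passed, 4.95% higher and 1.3% lower. The study associated Tet deletion with higher expression of a few genes for chromatin remodeling factors, which its text does not name. Its plot marked genes at a log2 fold change of 1 and an adjusted p under 0.05 from DESeq2. Values of the 2 groups did not overlap for 21 of the 50 genes, 15 higher and 6 lower, where 44.1% of all genes did not overlap, 21.2% higher and 22.9% lower.

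**Figure D2:**
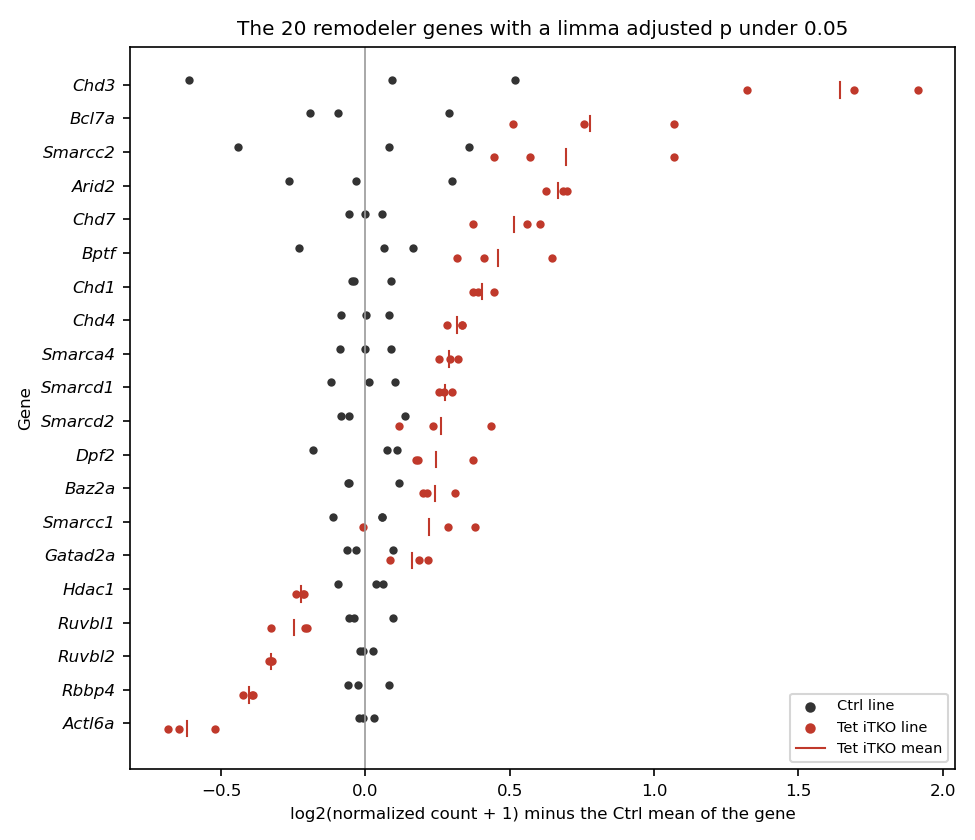
The 20 remodeler genes with a limma adjusted p under 0.05; the x axis is log2(normalized count + 1) minus the mean of the gene in Ctrl, each point is 1 line and the red bar is the mean of the 3 Tet iTKO lines. Chd3 lies farthest to the right and Actl6a farthest to the left, and the black and red points overlap for Smarcc1, Smarcd2 and Gatad2a.

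Of the 13 core BAF genes, 6 were higher and 1 was lower, with a median of 0.09. After the correction for GC content and length described below, 1 was higher and 3 were lower, with a median of -0.07. Of all genes tested, 16.4% were higher and 18.4% lower, and after the correction 12.5% and 14%. Smarca4 stood at 1115, 1185 and 1260 normalized counts in Ctrl and at 1414, 1482 and 1452 in Tet iTKO. The groups did not overlap, and the log2 fold change was 0.29 ± 0.06 (SE, limma adjusted p = 0.00032). The scaffold pair Smarcc1 and Smarcc2 rose by 0.22 and 0.69. Smarcc2 went from 65, 114 and 94 to 132, 187 and 121, with all Tet iTKO lines above all Ctrl lines (limma adjusted p = 0.00484). The pair Smarcd1 and Smarcd2, which encode BAF60 subunits that contact transcription factors, rose by 0.28 and 0.26. Their paralog Smarcd3 went the other way without passing (-0.49, limma adjusted p = 0.237).

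Bcl7a, which encodes an accessory subunit, had the largest fold change of the core set. It stood at 42, 45 and 59 in Ctrl and at 102, 82 and 69 in Tet iTKO, again without overlap (0.78 ± 0.24, limma adjusted p = 0.00961). Without Tet iTKO replicate 1 its log2 fold change was 0.63 and the adjusted p was 0.0802. Its paralogs Bcl7b and Bcl7c did not pass, at -0.09 and 0.09.

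Actl6a, also called BAF53a, is the actin-related subunit of BAF in stem and progenitor cells, and INO80 and TIP60-p400 hold it too. It was the core BAF gene that fell. Its values were 1869, 1817 and 1801 in Ctrl and 1274, 1137 and 1167 in Tet iTKO. The Tet iTKO mean was 65.2% of the Ctrl mean, and the groups lay well apart (log2 fold change -0.62 ± 0.06, limma adjusted p = 2.05e-10). Of its exon length, 11.6% overlaps Mrpl47 on the opposite strand, and in unstranded libraries reads from there cannot be told apart.

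The other core BAF genes did not pass the test. Smarcb1, a tumor suppressor subunit found in all BAF forms except ncBAF, stood at 1143, 1108 and 1027 in Ctrl and at 1034, 1072 and 1106 in Tet iTKO, with a log2 fold change of -0.03 and a 95% interval from -0.16 to 0.10. Smarce1 had -0.07. Smarca2, at 15, 15 and 10 against 10, 12 and 21, had an interval from -0.98 to 1.08, too wide at this level to show a change of less than that size.

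Some subunits tell the BAF forms apart. Of the 4 genes of canonical BAF, Dpf2 alone passed. Dpf2 reads modified histone tails, and its values rose from 698, 855 and 834 to 900, 896 and 1026 (0.24, limma adjusted p = 0.0124). That call was lost without Ctrl replicate 1 (0.15, adjusted p = 0.133) and without Tet iTKO replicate 3 (0.18, adjusted p = 0.122). The DNA-binding subunit Arid1a had 0.17 with an interval from -0.01 to 0.35, and Arid1b had 0.37 with an interval from -0.11 to 0.85. Dpf1, a Dpf2 paralog best known from neurons, had -0.08.

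Arid2, which takes the place of the Arid1 proteins in PBAF, stood at 114, 169 and 134 in Ctrl and at 212, 223 and 221 in Tet iTKO. All Tet iTKO lines exceeded all Ctrl lines (0.67 ± 0.14, limma adjusted p = 0.000366). No other PBAF or ncBAF gene passed. Pbrm1, the polybromo subunit of PBAF, had 0.14, Phf10 had 0.27 (0.14 to 0.43 when 1 line was left out), Brd7 had -0.09 and the ncBAF subunit Brd9 had -0.21. The 3 values of Brd9 in Tet iTKO (145, 127 and 147) were all below those in Ctrl (154, 174 and 156). Of the other members that did not pass, Arid1b, Mta1 and Chd9 were higher without overlap. No overlap was seen in 44.1% of all genes.

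Among the ISWI genes the motor Smarca5 did not pass, at 781, 783 and 837 in Ctrl and 801, 836 and 741 in Tet iTKO, with a log2 fold change of -0.01 and an interval from -0.16 to 0.13. Smarca1 was counted at 7, 17 and 9 against 16, 13 and 15 and did not pass (0.47, with an interval from -0.60 to 1.54). Both ISWI genes that passed encode large partner subunits. Bptf, the reader subunit of the NURF complex, rose from 161, 150 and 122 to 191, 179 and 225 (0.46, limma adjusted p = 0.0123). Baz2a, the nucleolar partner in NoRC, rose by 0.24, while Baz1a had 0.34 (0.10 to 0.58 when 1 line was left out) and Baz1b had 0.003 and neither passed.

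Of the 6 CHD genes outside NuRD, Chd1 and Chd7 were higher. Chd1 binds the histone mark at active promoters and is needed for the open chromatin of mESC. Its values went from 245, 223 and 224 to 314, 299 and 302, without overlap (0.40 ± 0.11, limma adjusted p = 0.00403). Chd7, which acts at enhancers, went from 224, 207 and 215 to 279, 318 and 328 (0.51 ± 0.11, limma adjusted p = 0.000478). The other 4 CHD genes did not pass. Chd2 read 76, 65 and 80 against 80, 92 and 83, and Chd6 read 93, 45 and 57 against 78, 87 and 66. Chd8 read 237, 274 and 286 against 241, 244 and 247. Chd9 read 50 in each Ctrl line against 56, 75 and 53. Their log2 fold changes ran from -0.12 for Chd8 to 0.30 for Chd6, which ranged from 0.07 to 0.59 when 1 line was left out.

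The NuRD genes held the largest rise of the catalog. Chd3 was counted at 15, 34 and 25 in Ctrl and at 60, 91 and 78 in Tet iTKO. Every Tet iTKO line exceeded every Ctrl line, and the mean rose 3.09-fold (log2 fold change 1.64 ± 0.31, 95% interval 1.02 to 2.26, limma adjusted p = 5.18e-05). Chd4, the main NuRD motor in these cells, went from 703, 748 and 790 to 942, 941 and 908, also without overlap (0.32 ± 0.07, limma adjusted p = 0.000532). Even after its rise Chd3 was a small part of the pair, with 2.93% ± 1.05 of the Chd3 and Chd4 levels per kb in Ctrl and 7.03% ± 1.35 in Tet iTKO (SD, n = 3).

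Rbbp4, a histone chaperone shared by NuRD, PRC2 and the CAF-1 assembly factor, was the NuRD gene that fell most. It stood at 2922, 2712 and 2648 in Ctrl and at 2100, 2105 and 2055 in Tet iTKO, so that the groups were far apart (-0.40 ± 0.05, limma adjusted p = 1.03e-07). Of its exon length, 8.94% overlaps Sync on the opposite strand. Hdac1 fell too, from 2141, 1920 and 2105 to 1736, 1765 and 1770 (-0.22 ± 0.06, limma adjusted p = 0.00159), while Hdac2, at 881, 825 and 789 against 862, 791 and 762, did not pass. The scaffold gene Gatad2a rose by 0.16. Mbd3 had 0.03, with an interval from -0.09 to 0.16, and Mta1, Mta2, Mta3 and Gatad2b had 0.25, 0.11, 0.10 and 0.17 without passing.

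In the INO80, SRCAP and TIP60-p400 set, the 3 motors did not pass and both RuvB-like genes were lower. Ino80 stood at 105, 59 and 61 against 72, 93 and 117, and Ep400, the motor of TIP60-p400, at 389, 265 and 272 against 316, 362 and 395. Srcap, which shares 61.7% of its exon length with Gm42715 on the same strand, stood at 84, 79 and 104 against 110, 85 and 75. With all lines the log2 fold change was 0.35 for Ino80 and 0.23 for Ep400. Ctrl replicate 1 was the highest of its group for Ino80 and Ep400, and without it both passed (Ino80 0.61, limma adjusted p = 0.0486, and Ep400 0.41, adjusted p = 0.00697). With all lines and the correction for GC content and length described below, neither passed. Ino80 then had 0.16 (limma adjusted p = 0.644) and Ep400 had -0.23 (adjusted p = 0.158). Ruvbl1 and Ruvbl2 form the ring that assembles these complexes. Ruvbl2 fell from 2644, 2730 and 2660 to 2141, 2134 and 2123, with the groups far apart and the Tet iTKO lines close to each other (-0.33 ± 0.05, limma adjusted p = 2.39e-06), and 10.7% of its exon length overlaps Gys1 on the opposite strand. Ruvbl1 fell from 878, 868 and 963 to 780, 719 and 784 (-0.25, limma adjusted p = 0.0069).

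By role, 5 of the 15 SNF2-type motors (the Smarca and Chd genes, Ino80, Ep400 and Srcap, without the RuvB-like ATPases) were higher and 0 lower, with a median of 0.29. After the correction for GC content and length described below, 2 were higher and 1 lower, with a median of 0.01. Of the 35 other genes, Ruvbl1 and Ruvbl2 included, 10 were higher and 5 lower, with a median of 0.11, and after the correction 3 were higher and 6 lower, with a median of -0.05. Higher genes made up 16.4% of all genes tested and lower genes 18.4%, and after the correction 12.5% and 14%. The members that rose and those that fell also differed in transcript length. The longest transcript had a median of 6376 bases for the 15 higher genes and 2038 bases for the 5 lower genes. For the 30 members not called it was 6150.5 bases, close to that of the higher genes. The 50 members had a median of 5847 bases against 3352 bases for all genes tested.

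Fold changes tracked transcript length over the whole transcriptome. When the genes were split into 5 equal bins by length, the median log2 fold change rose from -0.22 in the shortest to 0.19 in the longest, through -0.05, 0.03 and 0.08. Of the 50 remodeler genes, 26 lay in the longest bin, where the members had a median of 0.24. Spearman's rho of fold change and length was 0.29 over 10457 genes and 0.48 over the 50 members. For GC content it was 0.26 over all genes and -0.04 over the members. These are descriptions across genes of the same 6 libraries, and genes are not independent replicates.

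**Figure D3:**
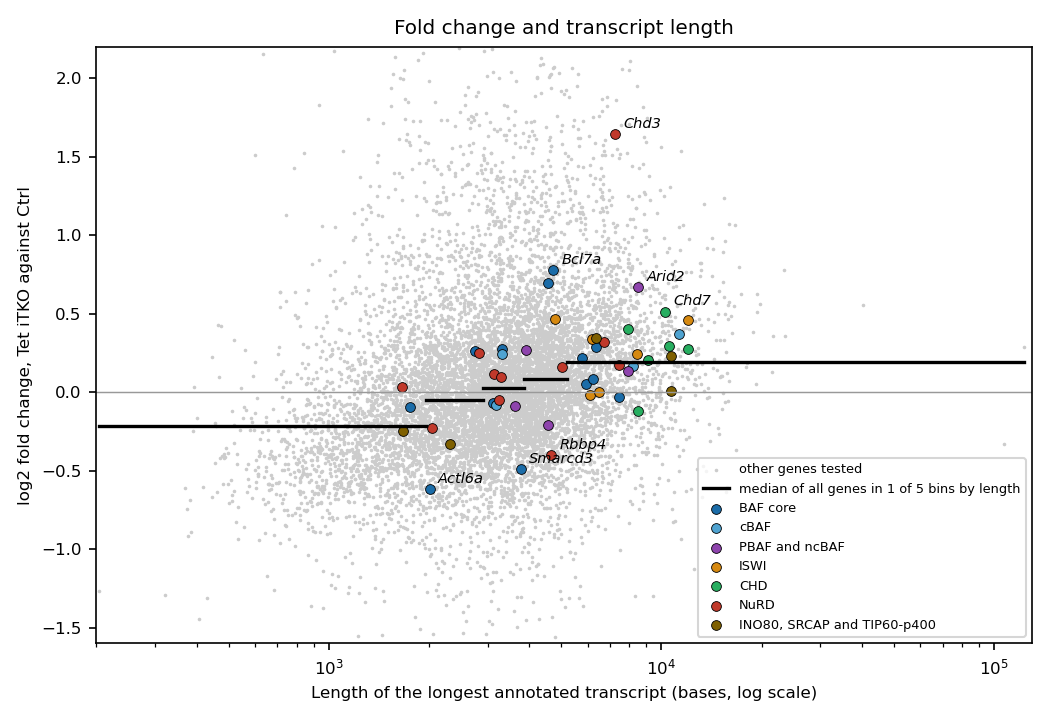
Log2 fold change of Tet iTKO against Ctrl (y axis) and length of the longest annotated transcript in bases (x axis, log scale); grey points are other genes tested, colored points are the 50 remodeler genes by complex, and black bars are the medians of all genes in each of 5 bins by length. The bars climb from -0.22 to 0.19, most members lie to the right, and 154 of the 10457 genes fall outside the axes.

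The members were therefore also compared after each library had been corrected for its trend with GC content and length. With that correction 5 members were higher and 7 lower, or 24% of the 50 against 26.5% of all genes. By direction that was 10% against 12.5% for higher and 14% against 14% for lower. The median of the members went from 0.17 to -0.004, and that of all genes stayed at 0.01. Of the 15 rises, 10 did not pass after the correction. Smarca4 went to -0.08, Chd4 to 0.02, Chd7 to 0.10, Bptf to 0.06, Baz2a to -0.10 and Gatad2a to -0.08. Smarcc2 kept 0.47 but missed the threshold (limma adjusted p = 0.0643), and Smarcc1, Smarcd1 and Smarcd2 were at 0.08, 0.04 and 0.10. Hdac1 and Ruvbl1 went to -0.08 and -0.09.

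There were 8 members that passed in the same direction in both fits. The 5 that rose were Chd3 (1.21 after correction), Bcl7a (0.63), Arid2 (0.48), Chd1 (0.31) and Dpf2 (0.22). When the same correction was made by least squares, Bcl7a (0.56, limma adjusted p = 0.0722), Chd1 (0.26, adjusted p = 0.0699) and Dpf2 (0.15, adjusted p = 0.123) missed the threshold. The 3 that fell were Ruvbl2 (-0.46, limma adjusted p = 1.69e-09), Actl6a (-0.45, adjusted p = 9.33e-08) and Rbbp4 (-0.40, adjusted p = 5.17e-08). These 8 come from 6 of the 7 sets, since no ISWI gene passed in both. Chd3, Arid2, Actl6a, Rbbp4 and Ruvbl2 kept their call in each alternative fit tried, with the highest adjusted p between 0.0108 for Actl6a and 0.033 for Arid2, both in the fit without a variance trend. Another 4 members passed as lower only after the correction, namely Smarcd3 (-0.84), Chd8 (-0.40), Arid1a (-0.33) and Smarcb1 (-0.26). Of these, Smarcd3 shares 48.2% of its exon length with Chpf2 on the opposite strand.

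**Figure D4:**
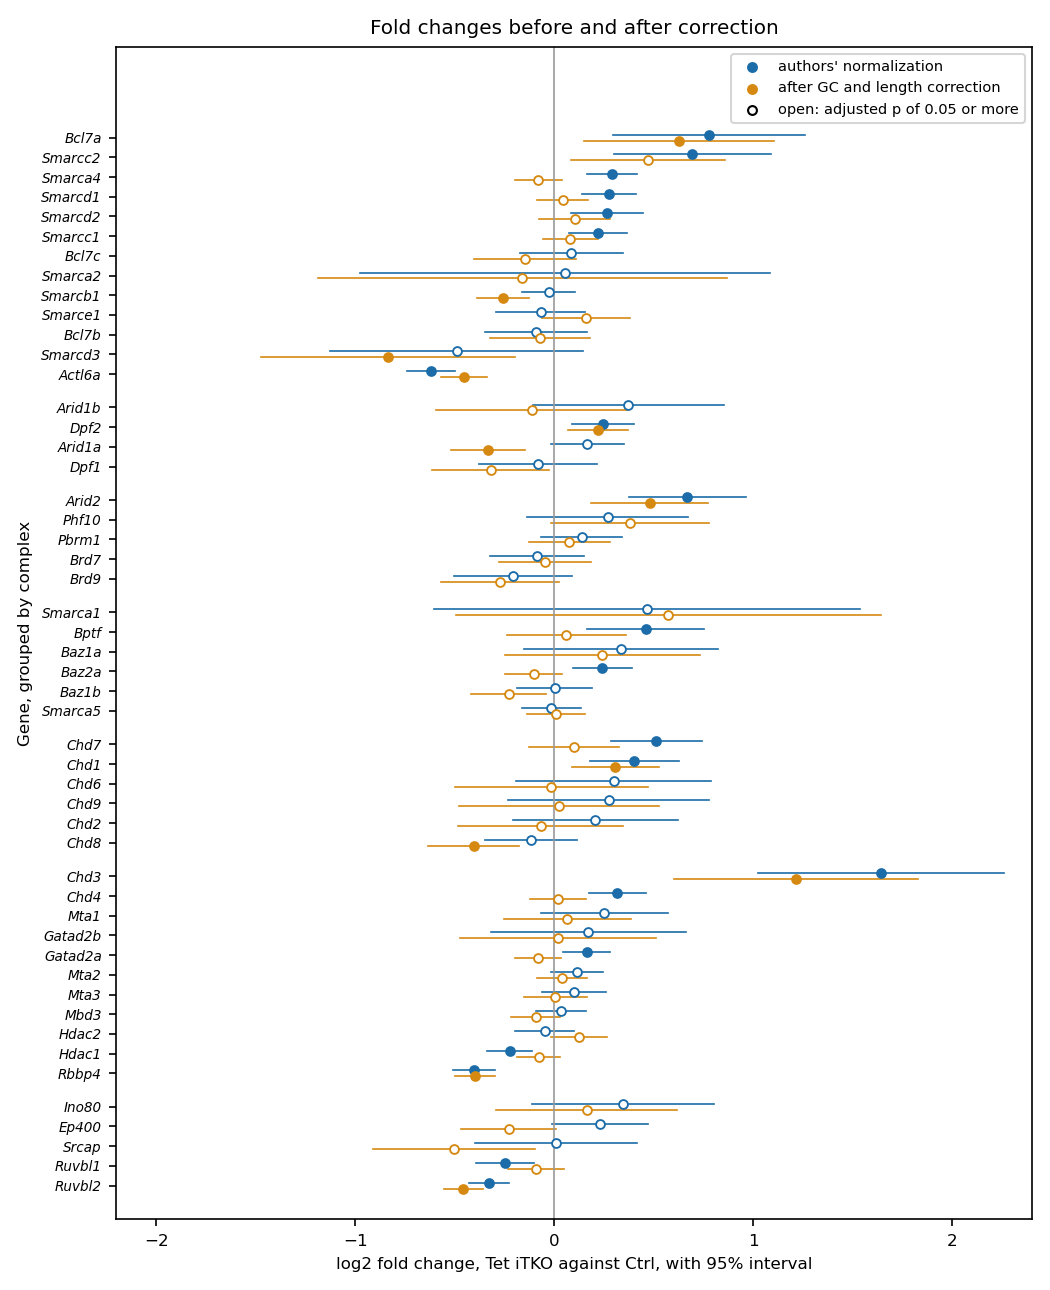
Log2 fold changes of the 50 remodeler genes with 95% intervals, in blue as deposited and in orange after the correction for GC content and length; filled points have a limma adjusted p under 0.05. Chd3, Bcl7a, Arid2, Chd1, Dpf2, Actl6a, Rbbp4 and Ruvbl2 have filled points of both colors, and Arid1a has its blue point above 0 and its orange point below.

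Because TET enzymes act on CG pairs, the upstream sequences of 3 of these 8 genes are shown, 2 that fell and 1 that rose. Each runs from 250 to 51 bases before the RefSeq start on the strand of the gene, and capitals mark CG pairs. They lie at chr3:32708296-32708495 (plus strand) for Actl6a, chr4:129335421-129335620 (minus strand) for Rbbp4 and chr19:5912922-5913121 (minus strand) for Dpf2, in RefSeq sequence of build GRCm38.p6.
Actl6a: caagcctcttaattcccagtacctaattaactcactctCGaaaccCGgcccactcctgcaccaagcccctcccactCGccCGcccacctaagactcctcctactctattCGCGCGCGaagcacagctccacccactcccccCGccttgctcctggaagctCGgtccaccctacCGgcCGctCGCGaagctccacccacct
Rbbp4: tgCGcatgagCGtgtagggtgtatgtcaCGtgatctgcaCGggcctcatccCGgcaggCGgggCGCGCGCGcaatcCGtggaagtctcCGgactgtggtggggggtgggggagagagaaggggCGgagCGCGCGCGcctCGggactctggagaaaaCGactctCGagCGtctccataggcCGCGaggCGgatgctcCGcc
Dpf2: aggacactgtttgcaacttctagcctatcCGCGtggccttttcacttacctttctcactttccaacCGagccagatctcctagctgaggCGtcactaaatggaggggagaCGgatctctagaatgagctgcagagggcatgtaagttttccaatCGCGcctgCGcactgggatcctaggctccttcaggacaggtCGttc
The 200 bases of Actl6a hold 14 CG pairs, those of Rbbp4 hold 25 and those of Dpf2 hold 9. Chd3, Bcl7a, Arid2 and Chd1, which rose, had no RefSeq entry. Ruvbl2, which fell, is not shown, and its 250 bases hold 8 CG pairs. The 3 windows therefore do not show how genes that rose and fell differ in CG pairs.

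Over the full 250 bases upstream, 40 of the 50 members had a RefSeq entry, with a median of 21.5 CG pairs and a range from 4 to 51. Of these, 36 (90%) held 10 or more CG pairs, against 78.8% of 8334 genes tested with an entry. The same letters are found in nearly every such window, since 99.4% of those genes had at least 1. The 10 higher members with an entry had a median of 20.5 CG pairs, the 4 lower members 13.5 and the 26 others 24.5. Among the lower genes the counts ranged from 6 to 30, so they spanned windows poor and rich in CG. Methylation was not analysed here.

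Paralogs in these complexes often exclude each other, so the balance within a pair can bear on which version of a complex forms. Of 16 pairs compared by their log2 ratio per line, 4 had ratios that did not overlap between groups. For single genes, 44.1% of all tested did not overlap, and no such share was taken for ratios of other genes. All 4 pairs kept their direction without overlap after the correction, which used the same lines. Chd4 over Chd3 fell by 1.33 on the log2 scale. Bcl7b over Bcl7a fell by 0.87, with Bcl7b at 210, 216 and 219 in Ctrl and 176, 215 and 217 in Tet iTKO, and the share of Bcl7a in the levels per kb of that pair went from 7.75% ± 1.19 to 13.6% ± 3.72 (SD, n = 3). Hdac1 over Hdac2 fell by 0.18. Smarcd1 over Smarcd3 rose by 0.77, with Smarcd3 at 60, 30 and 48 in Ctrl and 29, 30 and 35 in Tet iTKO and Smarcd1 at 876, 960 and 1022 and 1148, 1135 and 1172. The gap between the groups was narrow for this ratio, from 4.95 in Ctrl replicate 2 to 5.03 in Tet iTKO replicate 3. With 3 lines against 3 the exact two-sided permutation test cannot go below 0.1, which each of the 4 reached, and adjusted over the 16 pairs it gave 0.4.

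The other pairs overlapped between groups in the deposited values. The ratio of Smarca4 to Smarca2 differed by 0.24, of Smarca5 to Smarca1 by -0.48, of Arid1a to Arid1b by -0.21, of Smarcc1 to Smarcc2 by -0.47 and of Mta2 to Mta3 by 0.02. For Ruvbl1 over Ruvbl2, whose proteins sit in the same ring, the difference was 0.08 in the deposited values, and Ruvbl2 made up 68.2% ± 1.44 of the pair in Ctrl and 67.0% ± 1.09 in Tet iTKO. After the correction 6 of the 16 pairs had no overlap. The pairs added were Ruvbl1 over Ruvbl2, with a difference of 0.37, and Dpf2 over Dpf1, with 0.54 against 0.33 before.

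A wider list of 56 further subunits and SNF2-family ATPases was read for context, and 53 had a mean of at least 10. Of these, 5 were higher and 10 lower, with a median of -0.12, and after the correction 3 were higher and 7 lower. The largest falls were in Actr6, an actin-related subunit of SRCAP (188, 176 and 172 against 100, 87 and 88, -0.96), Chrac1 (155, 144 and 153 against 120, 72 and 111, -0.61) and the INO80 subunit Ino80c (258, 222 and 252 against 180, 159 and 154, -0.57). Actr6 and Ino80c passed after the correction as well, and Chrac1 did not (limma adjusted p = 0.0568), nor did it without Tet iTKO replicate 2 (-0.38). The largest rises were in Cecr2 (147, 134 and 165 against 207, 215 and 263, 0.61), Rsf1 (95, 69 and 60 against 104, 110 and 109, 0.55) and Trrap (86, 95 and 91 against 132, 127 and 125, 0.49). In these 6 genes the groups did not overlap, and of the 3 that rose none passed after the correction. Rsf1 also lost its call in each of the fits that left out 1 line except that without Ctrl replicate 1 (0.41 to 0.57 where lost), and Trrap lost it without Ctrl replicate 1 or any 1 of the Tet iTKO lines (0.46 to 0.51). Over all genes tested, 16.4% were higher and 18.4% lower, and after the correction 12.5% and 14%. Within the 15 further SRCAP and TIP60-p400 subunits, 1 was higher and 4 were lower, and after the correction 0 and 2. Within the 6 further ISWI subunits 2 were higher and 2 lower, and after the correction 0 passed in either direction.

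Some calls did not hold in fits that left out 1 line, which also have fewer lines to test with. Besides Bcl7a and Dpf2, 6 of the higher members and 1 of the lower lost their call when 1 line was left out. Smarcc1 lost it without Ctrl replicate 2 or Tet iTKO replicate 1 or 2 (0.16, 0.14 and 0.19). Smarcc2 lost it without Ctrl replicate 1 or Tet iTKO replicate 2 (0.47 and 0.51), and Smarcd2 without Ctrl replicate 1 or 2 or Tet iTKO replicate 1 (0.24, 0.22 and 0.18). Bptf lost it without Ctrl replicate 3 or Tet iTKO replicate 3 (0.34 and 0.36), Baz2a without Ctrl replicate 2 or Tet iTKO replicate 1 (both 0.21), and Ruvbl1 without Ctrl replicate 3 or Tet iTKO replicate 2 (-0.20 and -0.21). Gatad2a lost it in 4 of the 6 fits, without Ctrl replicate 1 or 3 or Tet iTKO replicate 1 or 3, with 0.13 to 0.15. When the prior spread was not allowed to vary with the level of a gene, 6 higher members (Chd3, Bcl7a, Arid2, Chd7, Chd1 and Chd4) and 3 lower members (Actl6a, Rbbp4 and Ruvbl2) remained.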

How the data were processed

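Normalized counts of 3 Ctrl and 3 Tet iTKO lines were used. Per the labels and the study's methods, the authors aligned paired 50-base Smart-Seq2 reads with STAR, counted them per gene with HTSeq 0.7.1 in a strand-specific mode and divided by DESeq2 1.26.0 size factors, and the submitters' processing notes name build mm9. The deposited values are whole numbers and were treated as a normalized score, not as read counts, so no count test was run and raw depth is unknown. In R 4.3.3, limma 3.58.1 (variance trend, Benjamini-Hochberg over 10524 genes with a mean of at least 10) was fitted to log2(value + 1), so fold changes of low genes are understated. The script was tested on simulated data with known changes. A second fit first removed from each library a robust loess trend (span 0.3) with GC content and longest-transcript length (GENCODE M21). Lengths and overlaps come from GRCm38 and were used by gene ID. Alternatives were another pseudocount, filter, scaling or variance model, a replicate block and each line left out. Per gene, the squared difference of a pair of replicates over their sum had a mean of 2.60 to 3.49, so no pair held the same values. On normalized values this cannot tell separate lines from libraries made from the same RNA. Same-numbered lines did not deviate together (r = 0.000706, -0.00543 and -0.00314). The 50 members and all lists were chosen with earlier results of these data known. Per-line values are given for members called with a log2 fold change of 0.5 or more, for ATPases and for paralog pairs without overlap, and for the largest 3 wider-list calls in each direction. Further members with per-line values were added after their values were seen.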

Additional observations from a re-analysis of the deposited data

How the results depend on the processing

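The counts of 15 higher and 5 lower members stayed within 1.5 times under other pseudocounts, other filters and the trimmed mean rescaling, with 10 to 15 higher. Quantile normalization left 3 lower members and 6 lower genes of the wider list. Without a variance trend 6 members were higher and 3 lower, 2 and 3 of the wider list, and 1075 and 1217 of all genes. With the GC and length correction 5 members and 3 wider genes were higher, and the median of the members was -0.00449. A least-squares version, added after seeing the data, gave 2 higher and 17 lower members, 3 and 13 wider genes, 1014 and 2068 of all genes and a member median of -0.089. In that fit the median of all genes was -0.062 as well. Lower calls made up 34% of members against 19.8% of all genes, and higher calls 4% against 9.7%. Log2 thresholds of 0.5 and 1 left 5 and 1 higher members and 1 and 0 lower. The trimmed mean rescaling moved the median to 0.137. Leaving out 1 line gave 10 to 13 higher and 4 to 5 lower members, 2 to 4 higher wider genes, a median of 0.137 to 0.191 and 4 to 8 paralog pairs without overlap (8 without Ctrl replicate 2).

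The lines share only a number, and the replicate block left 15 higher and 5 lower members; with the correction and the block 6 were higher, 7 lower, and the median was -0.00449.

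With the correction, Smarca4 (-0.0796), Arid1a (-0.331), Baz2a (-0.104), Gatad2a (-0.0804), Trrap (-0.0361) and Tet1 (-0.0174) changed sign, also with the block. By least squares these were at -0.213, -0.495, -0.218, -0.180, -0.199 and -0.0805, and Smarcd1 (-0.0842), Smarcd2 (-0.0232), Baz1b (-0.314), Bptf (-0.0624), Chd7 (-0.0396), Chd4 (-0.0846), Mbd3 (-0.230), Ep400 (-0.381) and Srcap (-0.673) turned too. The cause was not tested. Rounding and unknown depth limit genes of few counts.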

Other observations

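Sums of other marker lists were read in the same lines. Of the 2-cell-like markers, 3 of 5 were matched, with sums of 7 to 20 in Ctrl and 88 to 100 in Tet iTKO, nearly all of it Zscan4c and Zscan4d. Primitive endoderm markers summed to 6 to 15 and 14 to 35, trophoblast markers to 1 to 10 and 11 to 15, and the 3 matched neural markers to 625 to 730 and 652 to 724, nearly all of it Tubb3. The sums did not overlap between groups for the 2-cell-like and trophoblast lists and overlapped for the other 2. For single genes, 44.1% of all tested did not overlap. The trophoblast gap, from 10 to 11, was narrow and near the floor. Hand1 (0 in each Ctrl line against 6, 5 and 6) and Cdx2 (0 in each against 1, 5 and 2) were higher. Gata3 stood at 10, 10 and 1 against 4, 5 and 4, and Elf5 at 1 or less. The part of these marker lists in the values of the remodeler genes was not tested.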
